A study of Homo sapiens with 12 samples.

Results

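Cancer-testis antigen genes were examined in K562 cells, a human erythroleukaemia line, by RNA sequencing. Members were the genes of the count table whose symbols belong to the MAGEA, MAGEB, MAGEC, GAGE, XAGE, PAGE, SSX, CTAG, CT45A, CT47A or SPANX series or are PRAME itself, with at least 1 count in any library. Of 119 such symbols among 28278 genes, 54 had at least 1 count, 65 were at 0 in every library, and 27 passed the filter on low counts and were tested. Of the 54, 42 entered family sums, and 12 stayed outside them: 8 CTAGE genes and SSX2IP, which share only the first letters of the symbol with a family, the SSX pseudogene SSX6P, and the antisense genes MAGEA4-AS1 and MAGEA8-AS1. By position, 42 of the 54 lie on chromosome X.

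The study compared cells labelled WT with cells in which HRG1, the heme transporter encoded by SLC48A1, had been knocked out (KO). Each genotype was left without drug or received 0.75 mM sodium butyrate, a histone deacetylase inhibitor that pushes K562 cells towards the erythroid lineage, with a first dose 24 h after plating, a second 48 h later and collection 6 h after that. The series design places all samples at day 8 of differentiation. The hours given from plating to collection fall short of 8 days, and how the day was counted is not stated here. There were 4 groups of 3 libraries: untreated WT, butyrate WT, untreated KO and butyrate KO. How the knockout was made, how many KO clones were used and whether replicates were separate cultures are not stated, so genotype and any other difference between the cell populations cannot be told apart, and p-values measure the spread between these libraries.

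Cancer-testis genes are active mainly in the male germline and placenta. They are kept silent in most adult tissues, largely by DNA methylation of their promoters, and are switched on in many tumours, where peptides from their proteins can be seen by T cells. Many lie on chromosome X in families of near-identical copies. MAGE proteins bind RING-type ubiquitin ligases, PRAME is a substrate receptor of a cullin ligase and a repressor of retinoic acid receptor signalling, and the functions of the GAGE, PAGE, CT45A and SPANX proteins are less well known.

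Library totals ranged from 19963594 to 30348538 counts, and 3 counts, the limit of detection used here, stood for 0.0953 to 0.162 CPM (counts scaled to library size by TMM). SLC48A1 held 1357 to 1945 counts in the 6 WT libraries and 55 to 313 in the 6 KO libraries, and it fell by 3.63 on the log2 scale in untreated KO (edgeR adjusted p = 1.82e-05) and fell by 3.07 in butyrate KO (7.41e-05). Of 10 erythroleukaemia markers, all were above the limit in every library, whereas of 10 male germ cell markers 2 were, with a summed level of 1.504 to 4.92 CPM over the 12 libraries. Replicate 1 of each group held the largest share of the ribosomal gene RNA28SN5 in its group, up to 5.63% of counts in butyrate WT against a lowest share of 0.673%, and the counts of members and families called are therefore also given without the libraries numbered 1. The number of members with any count was 31 to 35 in untreated WT, 31 to 44 in butyrate WT, 23 to 28 in untreated KO and 23 to 35 in butyrate KO.

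The level of a gene relative to others was read per kilobase of merged exon. In untreated WT, PRAME stood first at a mean of 1105 CPM per kb, followed by MAGEA3 at 76.3, MAGEA6 at 61.7, MAGEA12 at 37.3, MAGEB2 at 28.0, CT45A10 at 20.5, MAGEC2 at 16.8, SSX2IP at 13.4 and MAGEC1 at 7.47. In untreated KO the same genes and CTAG2 were, from high to low, PRAME at 786, CTAG2 at 97.9, MAGEA3 at 75.9, MAGEA6 at 60.4, MAGEA12 at 34.8, MAGEC1 at 18.7, CT45A10 at 13.0, SSX2IP at 11.7 and MAGEC2 at 2.37, while MAGEB2 was at 0.0540. Replicate ranges overlapped for CTAG2 and MAGEA3 in untreated KO, so their order is not fixed by these data. The same holds for CT45A10 against MAGEB2, MAGEC2 and SSX2IP in untreated WT, and against MAGEC1 and SSX2IP in untreated KO. MAGEA3 stood above MAGEA6 in every library, but reads of stretches that they share may have gone to either, which leaves their order uncertain.

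CTAG2 was higher and MAGEB2, MAGEB1 and MAGEC2 were lower in the knockout cells, with and without butyrate, and no member passed edgeR's test for butyrate itself, although with the replicate number as a block CT45A10 and PAGE4 passed in WT and CT45A10 in KO. Comparing untreated KO with untreated WT asked how the loss of the transporter goes with expression at baseline. Of the 27 members tested, 9 passed edgeR's quasi-likelihood test at an adjusted p under 0.05, against 22.6% of all 15805 genes tested. CTAG2, GAGE12J and PAGE2B were higher in KO, where 11.7% of all genes were, and MAGEB2, MAGEB1, MAGEC2, CTAGE9, MAGEB16 and MAGEB17 were lower, as were 10.9% of all genes. The 3 untreated KO libraries did not overlap the 3 untreated WT libraries for 16 of the 27 members, against 42.3% of all genes. The median log2 change of the members was -0.50 and that of all genes 0.02. Under butyrate, 8 of 27 passed, against 19.0% of all genes, with CTAG2 higher (10.1% of all genes) and MAGEB2, MAGEB1, CTAGE9, MAGEC2, MAGEB17, CT45A1 and MAGEA8 lower (8.89%). Here 15 members did not overlap, against 33.9% of all genes, and the medians were -0.52 and -0.00216. For the 21 tested members on X alone the medians were -0.23 in untreated cells and 0.17 under butyrate, so the lower median did not hold for them under butyrate. These shares are for the members that passed the filter, which a member high in 1 group passes more readily than one low in both. Without the libraries numbered 1, 32 members were tested, of which 10 passed in untreated cells, against 26.2% of all genes, and 7 under butyrate, against 24.7%.

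**Figure D1:**
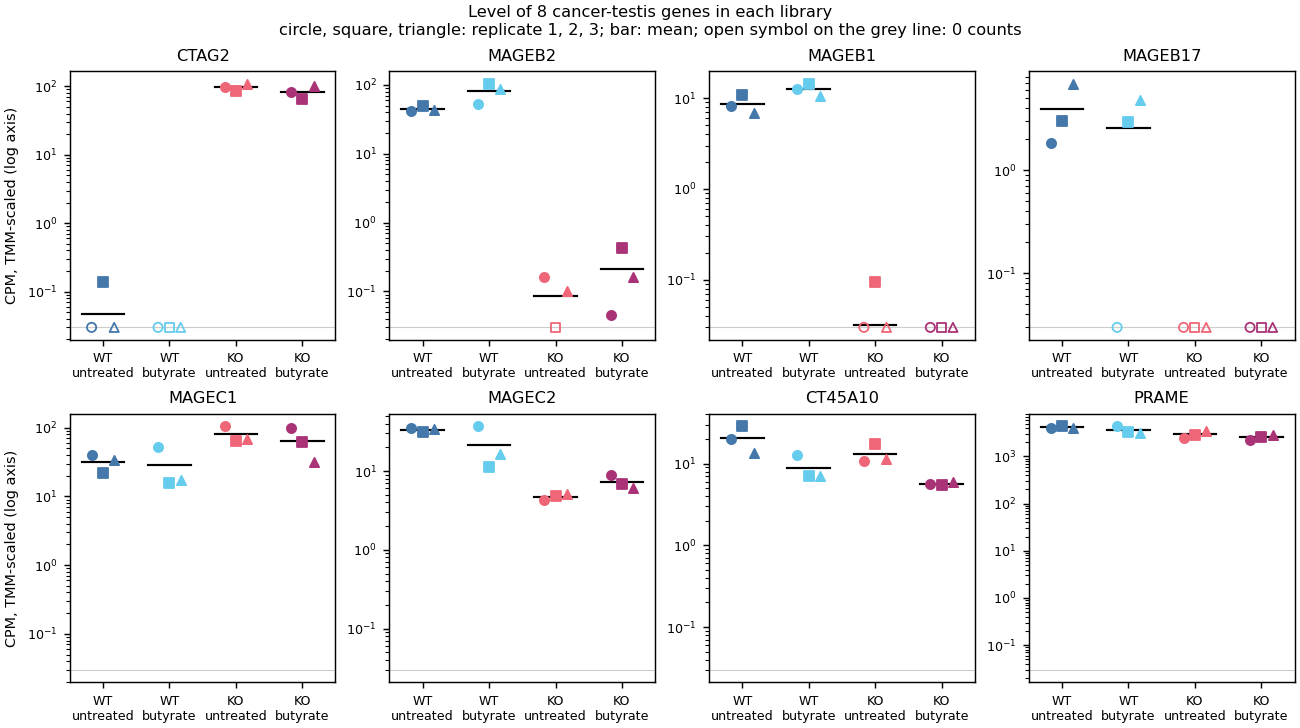
Level of 8 cancer-testis genes in each of the 12 libraries, in TMM-scaled CPM on a log axis that differs between panels, by genotype and treatment; each symbol is 1 library, the bar is the group mean and open symbols on the grey line are libraries with 0 counts. CTAG2 was at 64.8 CPM or more in the 6 KO libraries and at 0.139 CPM or less in the 6 WT libraries, while MAGEB2 and MAGEB1 stood the other way round.

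CTAG2 encodes LAGE-1, a close relative of the tumour antigen NY-ESO-1, and lies on the minus strand at chrX:154651977-154653579 (RefSeq, GRCh38.p14). It held 0, 3 and 0 counts in replicates 1, 2 and 3 of untreated WT and 0 in all 3 libraries of butyrate WT. It held 1836, 1770 and 3267 counts in untreated KO and 1777, 1963 and 3084 in butyrate KO. All 6 KO libraries were thus far above all 6 WT libraries. In scaled units the KO level was 97.2 ± 12.6 CPM untreated and 81.9 ± 17.3 CPM under butyrate (SD, n = 3), which is at least 725-fold and at least 649-fold higher than WT with the WT libraries set at 3 counts each. The edgeR adjusted p was 1.02e-06 in untreated cells and 1.27e-06 under butyrate, and CTAG2 passed in each fit that left out 1 library.

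CTAG2 shares part of its sequence with its neighbours in the family. CTAG1A and CTAG1B, 2 copies that encode NY-ESO-1, were at 0 in every library. Over 540 coding bases, CTAG2 and CTAG1B differ at 40 (92.6% identical), and 75.5% of the 100-base windows of CTAG2 transcripts occur in no other gene of the GENCODE v29 annotation on the same strand. The stretch from coding base 211 to coding base 360, counted from the start codon, holds 28 of these differences and is shown because it is where the copies can be told apart. Capitals mark the bases that differ:
CTAG2: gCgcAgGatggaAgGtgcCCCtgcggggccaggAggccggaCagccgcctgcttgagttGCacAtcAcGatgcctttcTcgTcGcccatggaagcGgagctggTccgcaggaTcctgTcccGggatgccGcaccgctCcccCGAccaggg
CTAG1B: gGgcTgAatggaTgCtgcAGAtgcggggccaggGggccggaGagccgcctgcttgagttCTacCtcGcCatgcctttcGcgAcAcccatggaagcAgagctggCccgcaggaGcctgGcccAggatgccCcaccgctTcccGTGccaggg

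Most genes around CTAG2 were lower in KO. Of 24 other tested genes within 500 kb, 18 were called in untreated cells, 16 of them lower in KO, and 16 were called under butyrate, all lower. The nearest, GAB3, a docking protein of growth factor signalling, lies 21670 bases away and was lower by 3.13 on the log2 scale in untreated KO (edgeR adjusted p = 0.000226). MPP1, a membrane scaffold of red cells, was lower by 3.61 (adjusted p = 6.79e-06). The 2 genes called higher in untreated KO were F8, which encodes a clotting factor, by 2.33, and TKTL1, a transketolase-like gene, by 3.81. For comparison, X-linked genes outside the members were called in 33.7% of 493 cases in untreated cells (56 higher, 110 lower) and 30.8% under butyrate (45 higher, 107 lower). Members on X were called in 8 of 21 and 7 of 21 cases.

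**Figure D2:**
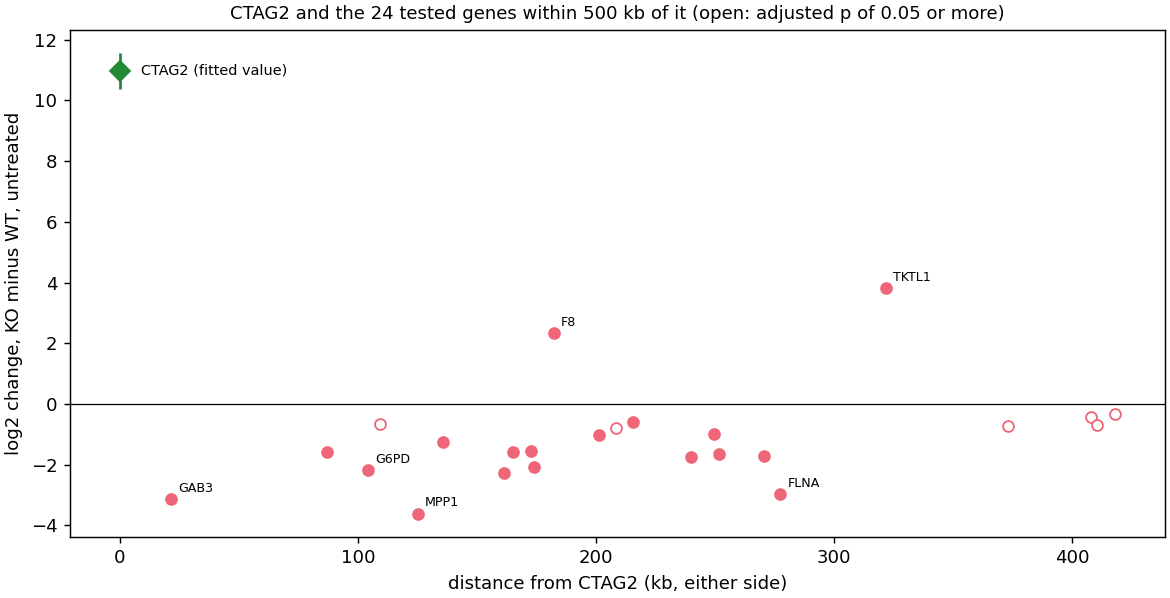
Fitted log2 change (KO minus WT, untreated) of CTAG2 and of the 24 tested genes within 500 kb of it, against their distance from CTAG2 in kb on either side; filled points passed an adjusted p of 0.05 in edgeR and the bar on CTAG2 is its standard error. Of the 24 neighbours, 16 filled points lie below 0 and 2, F8 and TKTL1, above it.

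The MAGEB genes, type I MAGE genes of the short arm of X, were lower in KO as a family. Summed over the family, the untreated WT libraries held 987, 1391 and 1712 counts and the butyrate WT libraries 1296, 2863 and 3297. The untreated KO libraries held 10, 15 and 38 and the butyrate KO libraries 12, 68 and 45. The KO and WT libraries did not overlap. In CPM the sum was 58.5 ± 5.6 against 0.839 ± 0.384 in untreated cells and 98.0 ± 28.1 against 1.42 ± 0.848 under butyrate (SD, n = 3), 69.7-fold and 69.2-fold lower in KO (edgeR adjusted p = 4.42e-06 and 4.83e-06).

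MAGEB2 carried most of this sum in WT, between 75.2% and 85.3% of it. It held 778, 1077 and 1288 counts in untreated WT and 1026, 2441 and 2766 in butyrate WT. It held 3, 0 and 3 counts in untreated KO and 1, 13 and 5 in butyrate KO. MAGEB2 was at least 336-fold lower in untreated KO, whose libraries were at or under the limit, and 385-fold lower in butyrate KO (edgeR adjusted p = 1.93e-06 and 1.77e-06). MAGEB1, which lies 23642 bases from MAGEB2, held 153, 235 and 204 counts in untreated WT and 240, 338 and 333 in butyrate WT. In KO it held 2 counts in replicate 2 of the untreated group and 0 in the other 5 libraries, which is at least 64.5-fold and at least 112-fold lower (edgeR adjusted p = 4.96e-05 and 2.57e-05). MAGEB2 and MAGEB1 passed in every fit that left out 1 library, and all 100-base windows of both occur in no other gene. MAGEB1 overlaps MAGEB4 by 457 bases on the same strand, and MAGEB4 held 6 counts in all.

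The other MAGEB genes were less abundant and did not all share this direction. MAGEB17 held 34, 65 and 204 counts in untreated WT, 0, 69 and 151 in butyrate WT and 0 in all 6 KO libraries. The butyrate groups overlapped through replicate 1 of butyrate WT. MAGEB17 was at least 29-fold lower in untreated KO (edgeR adjusted p = 0.0149) and at least 23.2-fold lower in butyrate KO (0.0202), limits that were 18.1-fold and 13.2-fold without replicate 3 of the WT group, the latter passing in 4 of 6 leave-one-out fits, with 0.0567 without replicate 2 and 0.0511 without replicate 3 of butyrate KO. GRPR, a peptide receptor gene 13963 bases from MAGEB17, was lower by 6.80 on the log2 scale in untreated KO (adjusted p = 0.00488). MAGEB16 held 17, 10 and 12 counts in untreated WT and 0 in untreated KO, at least 4.43-fold lower (edgeR adjusted p = 0.0117), and 24, 7 and 25 against 0, 7 and 6 under butyrate (0.143). MAGEB6 lay in the other direction, with 4, 4 and 0 counts in untreated WT against 7, 13 and 32 in untreated KO, and 0, 5 and 0 against 11, 44 and 34 under butyrate. It did not pass (edgeR adjusted p = 0.185 and 0.0589), but did so under butyrate with the replicate number as a block (0.0293), and it made up 64.7% to 91.7% of the family sum in KO libraries.

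**Figure D3:**
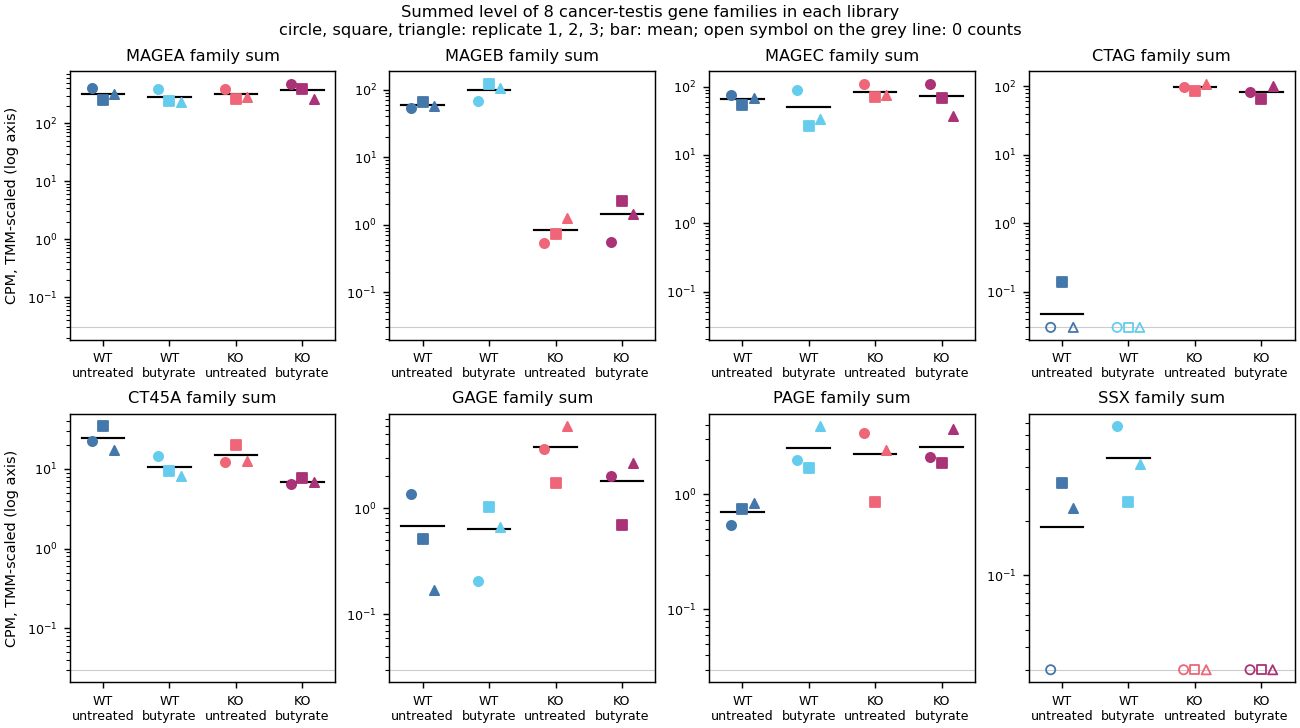
Summed level of 8 cancer-testis gene families in each of the 12 libraries, in TMM-scaled CPM on a log axis that differs between panels; each symbol is 1 library, the bar is the group mean and open symbols on the grey line are libraries with 0 counts. The MAGEB sum was between 53.4 and 122 CPM in WT and between 0.535 and 2.25 CPM in KO, and the MAGEA sums of the 4 groups overlapped.

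The MAGEC genes, on the long arm of X, lay in opposite directions by genotype. MAGEC2, an enhancer of the TRIM28 ubiquitin ligase, held 642, 677 and 1021 counts in untreated WT and 80, 101 and 152 in untreated KO. Under butyrate it held 718, 266 and 514 counts in WT and 196, 210 and 189 in KO. KO libraries were below WT libraries in both settings. The level was 33.5 ± 1.82 against 4.72 ± 0.407 CPM in untreated cells and 21.6 ± 13.7 against 7.34 ± 1.497 CPM under butyrate (SD, n = 3), log2 changes of -2.82 (SE 0.388, edgeR adjusted p = 0.000243) and -1.56 (SE 0.370, 0.0110). With only the 6 libraries of the butyrate contrast in the fit the adjusted p was 0.0725, and without replicate 1 of butyrate WT the log2 change was -0.93 (0.0250).

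MAGEC1, 292968 bases from MAGEC2, held 745, 468 and 1001 counts in untreated WT and 1982, 1363 and 2070 in untreated KO. Under butyrate it held 1007, 363 and 546 counts in WT and 2177, 1882 and 983 in KO. The untreated groups did not overlap, and the butyrate groups did. The log2 change was 1.33 (SE 0.491, edgeR adjusted p = 0.0714) in untreated cells and 1.19 (SE 0.490, 0.113) under butyrate, neither past the threshold. With the replicate number as a block both passed (adjusted p = 0.00508 and 0.00657), and both did so without the libraries numbered 1 (0.0156 and 0.00808). MAGEC1 made up 40.9% to 58.4% of the family's counts in WT libraries and 83.9% to 96.1% in KO libraries, so that the summed MAGEC level was 65.5 ± 11.3 CPM in untreated WT and 84.7 ± 22.3 CPM in untreated KO (SD, n = 3).

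The 200 bases before the annotated start of the transcripts are shown for MAGEB2 and MAGEC2, which were lower in KO, for MAGEC1, whose change lay the other way, and for MAGEA3, whose groups overlapped, because methylated CG pairs in such stretches are the known mark of silent cancer-testis genes. No methylation was measured here. Sequences are from RefSeq (GRCh38.p14), read 5′ to 3′ on the strand of the gene, with CG pairs in capitals. They span chrX:30215363-30215562 (plus strand) for MAGEB2, chrX:142205291-142205490 (minus) for MAGEC2, chrX:141903694-141903893 (plus) for MAGEC1 and chrX:152698594-152698793 (plus) for MAGEA3:
MAGEB2: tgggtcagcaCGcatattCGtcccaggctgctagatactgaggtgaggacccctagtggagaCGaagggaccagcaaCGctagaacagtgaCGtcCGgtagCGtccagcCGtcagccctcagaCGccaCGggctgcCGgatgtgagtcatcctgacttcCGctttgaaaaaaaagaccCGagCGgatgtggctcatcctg
MAGEC2: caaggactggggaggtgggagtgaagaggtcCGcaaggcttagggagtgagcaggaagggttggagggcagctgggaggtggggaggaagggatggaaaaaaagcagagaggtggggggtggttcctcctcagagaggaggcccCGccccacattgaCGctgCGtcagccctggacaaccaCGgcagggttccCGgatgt
MAGEC1: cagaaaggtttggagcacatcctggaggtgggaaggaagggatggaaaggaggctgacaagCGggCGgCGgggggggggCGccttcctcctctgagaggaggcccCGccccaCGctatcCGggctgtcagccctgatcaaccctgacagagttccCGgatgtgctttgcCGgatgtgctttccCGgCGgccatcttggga
MAGEA3: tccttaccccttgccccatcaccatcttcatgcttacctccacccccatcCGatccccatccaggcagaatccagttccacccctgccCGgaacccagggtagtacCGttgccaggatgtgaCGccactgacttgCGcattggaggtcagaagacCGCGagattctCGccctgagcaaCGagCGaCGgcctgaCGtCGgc

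These windows held 14 CG pairs for MAGEB2, 6 for MAGEC2, 11 for MAGEC1 and 13 for MAGEA3. The median was 7.5 over the 40 members with an entry in the promoter table and 9 over all 27305 entries. CTAG2 and MAGEB17 had no entry. Of 3 motifs searched on both strands, the ETS-type CCGGAA was in 12.5% of the members' windows against 13.2% of all, the E-box CACGTG in 20% against 5.62% (4 CTAGE and 4 PAGE genes, related copies counted singly), and the GC box GGGCGG in 25% against 39.9%. A match is a string of letters in the window and not a measured site. Close variants of CCGGAA were not searched, such as CCGGAT, which stands in the printed windows of MAGEB2, MAGEC2 and MAGEC1. The CCGGAA share is therefore not that of all ETS-type strings.

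The MAGEA genes of distal Xq were abundant in all 4 groups and none of the abundant ones passed in any contrast. MAGEA3 held 2190 to 3973 counts in untreated WT, 2093 to 3163 in butyrate WT, 2386 to 3711 in untreated KO and 3247 to 5043 in butyrate KO. Its level was 136 ± 36.4, 116 ± 41.9, 136 ± 29.9 and 159 ± 51.0 CPM in the same order (SD, n = 3), and the groups overlapped. MAGEA6 was at 115 ± 29, 100.03 ± 37.5, 113 ± 29.4 and 131 ± 42.4 CPM and MAGEA12 at 72.5 ± 12, 67.7 ± 8.85, 67.7 ± 11.9 and 88.6 ± 19.97 CPM. MAGEA3 and MAGEA6 differ at 18 of 942 coding bases (98.1% identical) and at 0 of the 200 bases before their starts, and their values are uncertain singly since reads of shared stretches may have gone to either. The counts of MAGEA6 were 0.802 to 0.880 times those of MAGEA3 in the 12 libraries. Their sum was 251 ± 65.4 CPM in untreated WT and 248 ± 59.3 CPM in untreated KO (SD, n = 3). MAGEA12 overlaps CSAG4 on the same strand.

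The other MAGEA genes had few counts. MAGEA8 held 6, 10 and 7 counts in untreated WT against 0, 0 and 2 in untreated KO (edgeR adjusted p = 0.0770), and 17, 5 and 22 against 0, 3 and 0 under butyrate, at least 5.38-fold lower (0.0422). The latter passed in 1 of 6 leave-one-out fits, where the adjusted p reached 0.133 without replicate 3 of butyrate KO, and it did not pass without the libraries numbered 1 (0.133). MAGEA11 held 3, 4 and 9 counts in butyrate WT and 0 in the other 9 libraries, too few to be tested. MAGEA4 held 2, 10 and 0 counts in butyrate KO and 0 in all others.

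PRAME, on chromosome 22, was by far the most abundant member. It held 74806 to 120298 counts in untreated WT, 78567 to 97800 in butyrate WT, 46940 to 104462 in untreated KO and 48029 to 87487 in butyrate KO. After scaling, no KO library overlapped the WT libraries of the same treatment. The log2 change was -0.49 (SE 0.215, edgeR adjusted p = 0.125) in untreated cells and -0.52 (SE 0.215, 0.119) under butyrate, short of the threshold. The DESeq2 Wald test gave 0.0375 and 0.0396, the 1 of 8 other settings to pass in each case. PRAME passed in 0 of 6 leave-one-out fits in either setting, and edgeR gave 0.247 and 0.445 without the libraries numbered 1.

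In the CT45A family, which includes 9 symbols of which 5 had counts, CT45A10 took 70.996% to 88.98% of the counts. CT45A10 shares most of its sequence with CT45A7, and 36.6% of its windows occur in no other gene, so the family sum is the firmer value. The sum was 24.8 ± 8.92 CPM in untreated WT, 10.7 ± 3.31 in butyrate WT, 15.1 ± 4.48 in untreated KO and 6.95 ± 0.614 in butyrate KO (SD, n = 3). Genotype did not pass for the sum, whose log2 change in untreated cells was -0.72 (edgeR adjusted p = 0.139). CT45A1, a copy with low counts, held 11, 6 and 7 counts in butyrate WT and 1, 0 and 0 in butyrate KO, at least 3.14-fold lower (edgeR adjusted p = 0.0397). It passed in 1 of 6 leave-one-out fits, where the adjusted p reached 0.138 without replicate 2 of butyrate KO, and not without the libraries numbered 1 (0.0669).

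GAGE and PAGE genes were counted at low levels, and 1 of each passed, higher in untreated KO. The GAGE sum held 25, 11 and 5 counts in untreated WT and 67, 36 and 178 in untreated KO, groups that did not overlap, and the log2 change was 2.49 (SE 0.846, edgeR adjusted p = 0.0515), short of the threshold. The adjusted p was 0.0443 with the replicate block and 0.0183 without the libraries numbered 1. GAGE1, at 23, 8 and 4 against 45, 26 and 93 counts, made up 52.2% to 72.2% of this sum in untreated KO libraries. Its log2 change was 1.97 and did not pass (edgeR adjusted p = 0.0932), but did so without the libraries numbered 1 (0.0254). In GAGE1 88.7% of windows occur in no other gene. GAGE12J, at 2, 3 and 0 against 20, 10 and 64 counts, was at least 9.16-fold higher (edgeR adjusted p = 0.0389), but passed in none of 6 leave-one-out fits (0.0548 to 0.133) and not without the libraries numbered 1 (0.0530). Without replicate 3 of untreated KO the limit was 5.76-fold. Only 22.6% of its windows occur in no other gene.

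PAGE2B held 0, 6 and 15 counts in untreated WT and 59, 16 and 69 in untreated KO, a log2 change of 2.91 (edgeR adjusted p = 0.0393). It held 8, 23 and 52 counts in butyrate WT and 43, 46 and 94 in butyrate KO. Its RefSeq span overlaps ALAS2, the erythroid enzyme that starts heme synthesis, by 2861 bases on the opposite strand. ALAS2 held 52243 counts over the 12 libraries and its mean went from 24.0 CPM in untreated WT to 193 in butyrate WT, 181 in untreated KO and 290 in butyrate KO, while that of PAGE2B was 0.261, 1.02, 2.07 and 2.17 CPM in the same groups. Whether strand was used in counting is not stated, so reads within these 2861 bases cannot be assigned to PAGE2B or ALAS2. How many PAGE2B counts come from that stretch is not known. PAGE2B passed in 2 of 6 leave-one-out fits, where the adjusted p reached 0.118 without replicate 1 of untreated KO, and not without the libraries numbered 1 (0.0854). PAGE1 held 9, 9 and 6 counts in untreated WT, 6, 2 and 18 in butyrate WT and 0 in all KO libraries, and was too low to be tested.

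Of the genes outside the family sums, 1 passed. CTAGE9, a member of the cutaneous T-cell lymphoma antigen group on chromosome 6, held 59, 24 and 34 counts in untreated WT, 54, 15 and 11 in butyrate WT and 0 in all KO libraries, at least 13.5-fold and at least 11.4-fold lower (edgeR adjusted p = 0.00620 and 0.00889). Without replicate 1 of the WT group these limits were 8.39-fold and 4.45-fold. It lies within ENPP3, on the opposite strand, and the mean of ENPP3 was 42.7 CPM in untreated WT and 0.0401 in untreated KO, so that the counts of CTAGE9 cannot be told apart from those of ENPP3. CTAGE15 held 16, 23 and 48 counts in butyrate WT and 0, 11 and 5 in butyrate KO and did not pass (edgeR adjusted p = 0.0863, or 0.0373 when blocked and 0.0464 in DESeq2). Of the windows of CTAGE9 and CTAGE15, 30.7% and 4.62% occur in no other gene. CTAGE15 shares most of its windows with CTAGE6, which held 3, 17 and 36 counts in butyrate WT and 0, 9 and 5 in butyrate KO, so their counts are uncertain singly. SSX2IP, which encodes a centrosome protein that binds SSX2, was at 116 ± 6.22 CPM in untreated WT and 101 ± 10.2 in untreated KO (SD, n = 3) and did not pass in any contrast. The SSX genes proper, known from the fusion of synovial sarcoma, held 0, 7 and 7 counts in untreated WT, 13, 6 and 13 in butyrate WT and 0 in all 6 KO libraries, below the filter. The pseudogene SSX6P, outside that sum, held 0, 8 and 2 counts in untreated WT, 0, 2 and 15 in butyrate WT, 0 in untreated KO and 0, 1 and 3 in butyrate KO. The SPANX genes of sperm nuclei held at most 2 counts in any library.

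**Figure D4:**
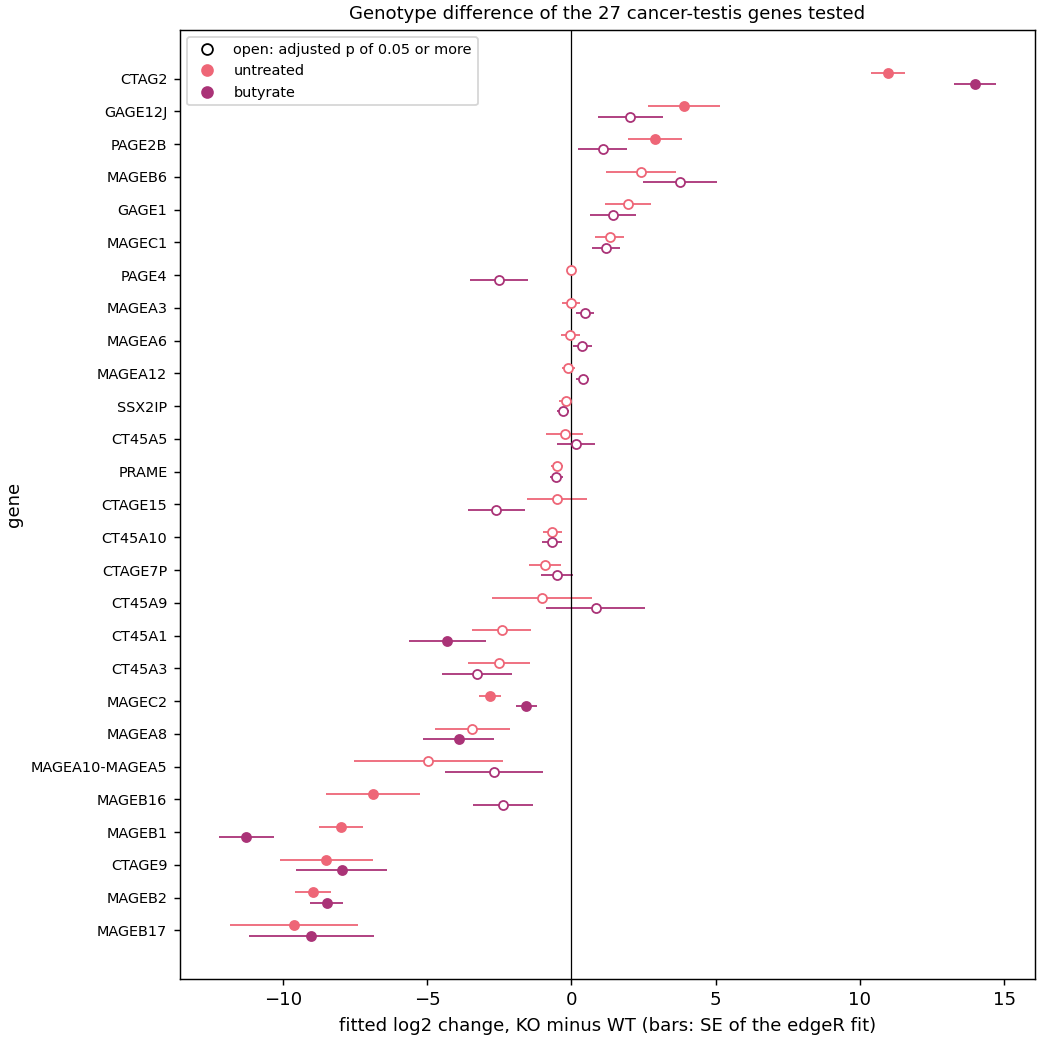
Fitted log2 change (KO minus WT) of the 27 cancer-testis genes tested, in untreated and in butyrate-treated cells; points are edgeR estimates, bars their standard errors, and filled points passed an adjusted p of 0.05. Filled in both settings are CTAG2 on the right and MAGEC2, MAGEB1, CTAGE9, MAGEB2 and MAGEB17 on the left; estimates for genes at 0 in a group depend on the prior count and are not bounds.

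Over families, 2 of the 8 tested passed in each genotype comparison, CTAG higher and MAGEB lower, against 22.6% and 19.0% of the genes of that table. With the replicate block 4 passed in untreated cells, GAGE and PAGE being added, and 2 under butyrate. Without the libraries numbered 1 the counts were 3 and 2.

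Butyrate was compared with no treatment to ask how the members respond to deacetylase inhibition in each genotype. In WT, 0 of 27 members passed edgeR's test, against 2.35% of all genes (1.80% higher, 0.550% lower), and 4 (14.8%) had an unadjusted p under 0.05, as did 18.0% of all genes. In KO 0 passed, against 3.40% of all genes (2.80% higher, 0.595% lower), and 4 (14.8%) had an unadjusted p under 0.05, as did 19.8% of all genes. The DESeq2 Wald test called CT45A10 and PAGE4 in WT and CT45A10 in KO, and 8.42% and 9.73% of all genes. The edgeR fit with the replicate block called the same members, and 8.61% and 11.7% of all genes. Without the libraries numbered 1, edgeR called CT45A10, MAGEB2, MAGEC2 and PAGE4 in WT and CT45A10 in KO, of 32 members tested, against 11.4% and 13.1% of all genes. Without replicate 1 of butyrate WT alone it called CT45A10, MAGEC2 and PAGE4 of 30 tested, against 7.63%. Groups did not overlap for 6 of 27 members in WT, against 21.7% of all genes, and for 4 in KO, against 24.4%. The interaction, the response in KO minus that in WT, gave 0 members in edgeR, where 0% of all genes passed. In the same fit 2 had an unadjusted p under 0.05 (MAGEC2 and MAGEB16, against 4.16% of all genes). DESeq2 gave 0 members, against 0.544% of all genes.

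CT45A10 held 371, 622 and 398 counts in untreated WT and 245, 165 and 225 in butyrate WT. It held 201, 368 and 339 counts in untreated KO and 124, 164 and 183 in butyrate KO. In CPM no treated library overlapped the untreated libraries of its genotype. The log2 change was -1.21 in WT (SE 0.348, edgeR adjusted p = 0.0930, or 0.0401 when blocked by replicate number) and -1.22 in KO (SE 0.349, 0.0782, and 0.0332 with the block). For the family sum it was -1.22 in WT (0.0760, and 0.0251 with the block) and -1.12 in KO (0.0851, and 0.0279 with the block). Without replicate 1 of butyrate WT the WT value of the sum was -1.5045 (0.0245).

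PAGE4, a disordered stress-response protein of the prostate and placenta, held 0 counts in all 6 untreated libraries. It held 17, 14 and 37 counts in butyrate WT and 2, 1 and 10 in butyrate KO. In WT this was at least 6.59-fold higher than without butyrate (edgeR adjusted p = 0.0503, just above the threshold, or 0.0247 when blocked). MAGEB2 was 1.81-fold higher in butyrate WT (edgeR adjusted p = 0.276, and 0.0439 without the libraries numbered 1). Over families 0 of 8 passed in either genotype or in the interaction, against 2.36%, 3.40% and 0% of the genes of that table. At an unadjusted p under 0.05 there were 2 in WT (CT45A and PAGE), 1 in KO (CT45A) and 0 in the interaction. DESeq2 gave 2, 1 and 0, and the edgeR fit with the block 1, 1 and 0.

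The families with no count at all were XAGE, with 5 symbols, and CT47A, with 12. Of 65 symbols at 0 in every library, 56 had a transcript in GENCODE v29, and 25 of these 56 have no 100-base window of their own, the median share of windows found in no other gene being 5.19%. In 15 of the 56 this share was at least 50%, and in XAGE2, XAGE3 and XAGE5 it was 100%. For XAGE1A and XAGE1B it was 0% and 23.7%. Among the 54 symbols with counts, 1 (CT45A9) had no window of its own and the median share was 98.2%. How reads that fit several copies were handled is not stated, so a 0 for a symbol with near-identical copies does not show that its transcript was absent. For a symbol with sequence of its own, a 0 allows up to 3 counts, or 0.0953 to 0.162 CPM.

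**Figure D5:**
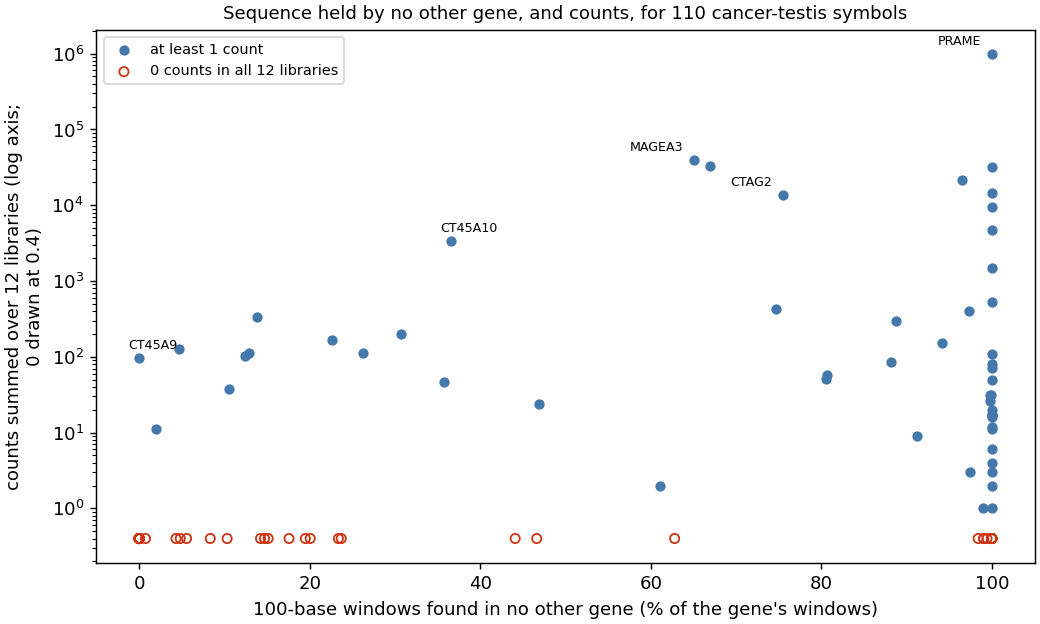
Counts summed over the 12 libraries (log axis, 0 drawn at 0.4) against the share of a gene's 100-base transcript windows that occur in no other gene of GENCODE v29, for the 110 cancer-testis symbols with a transcript there. Open symbols are at 0 counts, and 30 of them lie below 10% while PRAME, at 100%, has the most counts.

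Genes that are known to keep cancer-testis promoters silent or to activate them were read from lists, whose counts stand beside 22.6% of all genes called in untreated cells and 19.0% under butyrate. Of 17 genes of DNA methylation, 2 were higher and 4 lower in untreated KO, with a median log2 change of -0.20 against 0.02 for all genes, and 1 was higher and 4 lower under butyrate (0.05 against -0.00216). The de novo methyltransferase DNMT3A was at 22.1 ± 6.17 CPM in untreated WT and 71.9 ± 10.6 in untreated KO (SD, n = 3), a rise of 1.70 on the log2 scale (edgeR adjusted p = 0.00299). The other de novo enzyme, DNMT3B, was at 123 ± 13.0 and 29.8 ± 5.21 CPM (SD, n = 3), a change of -2.04 (0.000287). The methyl-CpG reader MBD1 fell by 1.10 (0.00325). TET1, which oxidises methylcytosine, was the gene of the 6 lists that passed for butyrate, with log2 changes of -0.95 in WT and -0.86 in KO (edgeR adjusted p = 0.0378 and 0.0435).

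Of 27 repressors of germline genes, 3 were higher and 1 lower in untreated KO, and 1 was higher and 2 lower under butyrate. HDAC1, a target of butyrate, rose by 0.62 (edgeR adjusted p = 0.0352) and HDAC3 fell by 0.58 (0.0351) in untreated KO. Of 5 activators of cancer-testis promoters, ETS1, a transcription factor that binds ETS motifs, was called in both settings. It held 59 to 297 counts in untreated WT, 43 to 297 in butyrate WT and 0 in all KO libraries, at least 47.3-fold and at least 69.1-fold lower (edgeR adjusted p = 0.00207 and 0.00202). The untreated limit was 19.7-fold without replicate 2 of WT. CTCFL, a germline relative of CTCF, did not pass, with log2 changes of -1.03 and -1.22 (0.189 and 0.134). Of 12 partners of MAGE and PRAME proteins, RBX1, a RING subunit of cullin ligases, rose by 1.03 (0.0197) and RARA, the retinoic acid receptor that PRAME binds, fell by 0.77 (0.0427) in untreated KO.

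MAGE genes that are expressed outside the germline also differed by genotype. Of 12 such genes 6 were tested, and 3 were higher and 1 lower in both settings. MAGED1 held 525 to 788 counts in the WT libraries and 0 to 3 in the KO libraries, at least 207-fold lower in untreated KO (edgeR adjusted p = 8.02e-07). MAGEE1 held 0 to 1 counts in WT and 13 to 66 in KO, at least 5.6-fold higher in untreated KO (0.00160). MAGEH1 held 0 to 55 counts in WT and 176 to 575 in KO, and rose by 6.12 on the log2 scale in untreated KO (0.00203). Of 24 tested genes of other cancer-testis families, 3 were higher and 8 lower in untreated KO, with a median of -0.71 against 0.02, and 3 were higher and 6 lower under butyrate, with a median of -0.88 against -0.00216. PASD1, a germline regulator of the circadian clock, held 64 to 188 counts in WT and 0 in KO, at least 46.1-fold lower (6.79e-05), and the helicase gene DDX53 was at least 58.8-fold lower (3.06e-05). CSAG3, which lies beside the MAGEA genes, rose by 1.15 (0.00271).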

How the data were processed

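Total RNA of 12 K562 samples in 4 groups of 3 was sequenced. The authors deposited a single table of raw counts by gene symbol, a unit read from its whole-number values. FastQC 0.12.1, STAR 2.7.11b and hg38 are named in the submitters' processing notes, while the counting tool, annotation, use of strand and treatment of reads that fit several genes are not given in the sources used here. Columns were matched to samples by library name, with 0 left unused and 0 rows naming no gene. The bulk table cannot tell fewer cells of a type from less RNA per cell.

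Counts were analysed in R 4.3.3 with edgeR 4.0.16: filterByExpr (minimum count 10, 15805 genes kept), TMM scaling, a mean per group over 12 libraries, and the quasi-likelihood F-test for 5 contrasts, with Benjamini-Hochberg adjustment across the genes kept, at a threshold of 0.05. For families, members were replaced by their sums (15790 genes). Group values are TMM-scaled CPM ± SD. Where no library of a group exceeded 3 counts, folds are bounds against 3 counts per library. These bounds do not cover the spread between libraries. They cover counting error for libraries at 0, but not in full for libraries that held counts up to this limit. The smallest p of the exact permutation test for 3 libraries against 3 is 0.1, and non-overlap is given in its place. The alternatives were DESeq2 1.42.0, other scalings and filters, a replicate block, fewer libraries and leaving out each library. The procedure was also run on simulated data whose libraries were drawn independently. That run does not show how the procedure behaves where same-numbered libraries deviate together, and its outcome is not given here.

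Any member could be named, and those with at least 50 counts in a library were to be described singly. Of these, CT45A5 and CTAGE7P are not described, and some others are given by ranges, means or 1 treatment only. From each list at most 3 genes per direction were named by size of change, and CTCFL was named after its values were seen. The members and lists were chosen with earlier results of these data known. Same-numbered libraries deviated together from their group means: the correlation over genes was 0.257 to 0.484 and 0.240 to 0.575 for the pairs of the WT and KO butyrate contrasts and 0.288 to 0.487 and 0.376 to 0.682 for those of the untreated and butyrate genotype contrasts. Differently numbered libraries reached 0.272, 0.129, 0.133 and 0.447 in the same contrasts, so the ranges overlapped in the first and last. The main fit held no block, so its p-values ignore any pairing by number. The fit with the replicate number as a block is given beside it as an alternative. No replicate pair was the same library (smallest chi-square per degree of freedom 37.2). Markers of other cell types summed to 63.6 to 93.1 CPM in untreated and 120 to 214 CPM in butyrate libraries, and their part in the results was not tested.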

Additional observations from a re-analysis of the deposited data

How the results depend on the processing

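No member or family with an unadjusted p under 0.05 changed direction under the alternatives run, which did not cover the neighbouring genes, X-linked genes or gene lists. For butyrate in WT, the count of members called, 0, became 2 with the DESeq2 Wald test, 1 with no filter (against 2.04% of all genes), 2 with the replicate block and 4 without the libraries numbered 1, an alternative chosen after seeing the data. The count was 0 to 3 over the fits that left out 1 library, against 0.262% to 7.63% of all genes. For butyrate in KO it became 1 with DESeq2, 1 with the replicate block and 1 without the libraries numbered 1, and was 0 in each fit that left out 1 library. The corresponding counts of families, 0 and 0, became 2 and 1 with DESeq2, 1 and 1 with the block, and 3 and 1 without the libraries numbered 1, and leaving out 1 library gave 0 to 1 in WT and 0 in KO. The interaction stayed at 0 members and 0 families in each alternative run.

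For KO against WT, leaving out 1 library gave 7 to 8 members in untreated cells (9 with all) and 5 to 8 under butyrate (8 with all, 5 without replicate 3 of butyrate KO). Of all genes these fits called 15.1% to 17.4% in untreated cells and 12.3% to 21.4% under butyrate, so fewer were called over all genes as well in most of them. Requiring 10 counts in every library left 10 members and removed CTAG2, MAGEB2 and MAGEB1 from the test. It gave 1 call, MAGEC2, in each setting, against 19.9% of all genes in untreated cells and 16.6% under butyrate, and 1 family, MAGEB, in each. With only the libraries of the contrast, 3 of 19 members were called under butyrate (CTAG2, MAGEB2 and MAGEB1), against 11.7% of all genes. With the replicate block, 10 and 11 members were called, and 33.0% and 29.2% of all genes. For families in untreated cells the count, 2, became 5 with DESeq2, 4 with the replicate block and 2 to 4 over the fits that left out 1 library, with 4 without replicate 1 of untreated WT; under butyrate it was 2 to 3. Scaling by library size alone moved the median log2 change of all genes to 0.12 for butyrate in KO and from -0.00216 to 0.0867 for KO against WT under butyrate. The calls of members with few counts, such as GAGE12J, MAGEA8 and CT45A1, rest on fewer than 100 counts in the higher group. Whether depth limits them was not tested.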
